A study of Mus musculus with 8 samples.

Results

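The kallikrein serine proteases Klk5, Klk6, Klk7, Klk8, Klk9, Klk10, Klk11 and Klk13 were followed through 8 mouse mammary tumours. They are 8 of the 22180 genes that had an array probe of their own. Each was taken by its symbol through the probe that the platform annotation gives this symbol alone, and each had 1 such probe, so that no choice between probes arose. These genes were selected on the log2 values of the same 8 tumours, as far as earlier results showed them, so their spread from tumour to tumour is described here without a test.

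Total RNA came from primary mammary tumours of transgenic mice of the inbred FVB strain, with 1 Affymetrix array per tumour. All 8 tumours carried NeuNT, a transgene of the receptor tyrosine kinase ErbB2, which is called Neu in rodents. NeuNT was the only modification named for 4 tumours, and 4 tumours, NeuNT/H1074R, also carried mutant p110α, the catalytic subunit of phosphoinositide 3-kinase. The series title spells the mutation H1047R; the spelling of the sample labels is kept here. The labels used here give neither the promoter behind the transgenes, nor the age of the mice, nor whether the tumours came from separate mice, so a p-value reflects only how these tumours differ among themselves. Values are log2 array signals, and the medians of the arrays, 4.82 to 4.87, were close enough to use them as deposited. Tumours are numbered 1 to 4 within each genotype, and the numbers do not pair tumours across genotypes.

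Tissue kallikreins are secreted serine proteases, made as inactive precursors that are cleaved to become active. In the outer layers of the skin, Klk5 starts a cascade that activates other kallikreins, and these cut the proteins that hold dead surface cells together, so that the cells are shed. The inhibitor LEKTI, encoded by Spink5, restrains them, and kallikreins can also signal to cells by cleaving protease-activated receptors. In the mouse the genes lie side by side on chromosome 7, and the starts of all 8 members are on the plus strand in the RefSeq annotation.

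RefSeq promoter windows, from 250 bases before to 50 bases after a transcript start, were found for all 8 members, 10 windows in all (assembly GRCm38.p6). They are shown for Klk10 and Klk6, which were high in 4 tumours, and for Klk5, which was high in 1. Capitals mark TGTTCT on either strand, a core bound by androgen and glucocorticoid receptors. All 3 are read on the plus strand, Klk10 from chr7:43780804-43781103, Klk6 from the later of its starts at chr7:43825200-43825499, and Klk5 from chr7:43842019-43842318.
Klk10: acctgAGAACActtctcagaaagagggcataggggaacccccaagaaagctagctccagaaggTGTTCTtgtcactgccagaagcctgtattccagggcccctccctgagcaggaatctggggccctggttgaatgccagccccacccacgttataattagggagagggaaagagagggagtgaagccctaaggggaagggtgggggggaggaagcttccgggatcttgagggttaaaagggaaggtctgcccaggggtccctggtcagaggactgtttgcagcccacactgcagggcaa
Klk6: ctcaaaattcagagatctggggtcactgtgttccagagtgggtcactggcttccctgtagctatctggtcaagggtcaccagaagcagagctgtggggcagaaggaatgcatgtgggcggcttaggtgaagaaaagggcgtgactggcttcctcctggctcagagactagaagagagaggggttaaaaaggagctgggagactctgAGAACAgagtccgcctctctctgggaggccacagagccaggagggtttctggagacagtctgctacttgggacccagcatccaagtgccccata
Klk5: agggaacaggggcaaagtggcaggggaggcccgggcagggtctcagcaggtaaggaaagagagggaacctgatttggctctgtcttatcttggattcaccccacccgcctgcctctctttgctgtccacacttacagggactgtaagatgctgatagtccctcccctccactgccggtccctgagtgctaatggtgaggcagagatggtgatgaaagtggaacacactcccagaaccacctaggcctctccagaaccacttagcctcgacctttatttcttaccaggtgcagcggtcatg
TGTTCT stood in 3 of the 10 member windows, those of Klk6, Klk10 and Klk11, and in 19.0% of all 32851 promoter windows of this length. The earlier window of Klk6, not shown, lacked it, as did that of Klk7, which was high in the same 4 tumours as Klk6. Klk11 held it in the later of its windows and was high mainly in NeuNT tumour 4. Of the kallikreins beside the members, Klk14 held it and was high in the same 4 tumours as Klk6, and Klk12 lacked it. Whether the motif goes with the tumours in which a kallikrein was high was not tested. The TATA box letters TATAAA, on either strand, were in 0 of the 10 member windows and in 13.6% of all windows. The AP-1 letters TGANTCA, on either strand, were in 0 of the 10 and in 7.81% of all. The motifs searched do not overlap in these windows. A match is a description of the letters, and the absence of one says nothing about the factor. The member windows held 52.0% to 65.3% G and C, against a median of 52.7% over all windows.

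The 8 kallikreins varied between tumours far more than most genes, and the variation ran across the genotypes. Between the highest and the lowest tumour they differed by 3.82 (Klk11) to 6.49 (Klk6) on the log2 scale, or 14.2-fold to 89.8-fold. The median range over the 16635 genes tested was 0.74. Only 273 genes tested, 1.64%, had a range as large as that of Klk11, and 26 genes, 0.156%, as large as that of Klk6. NeuNT tumour 4 was the highest tumour for 7 of the 8 members, and for Klk10 it was within 0.04 of the highest. Some of the kallikreins were high in 4 tumours, a pair from each genotype, and others mainly in NeuNT tumour 4. The division is not sharp, as Klk13 also reached 8.08 in NeuNT/H1074R tumour 3. This division was made after the values were seen. All 64 values lay above 4.06, the level under which genes were left out as dim.

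**Figure D1:**
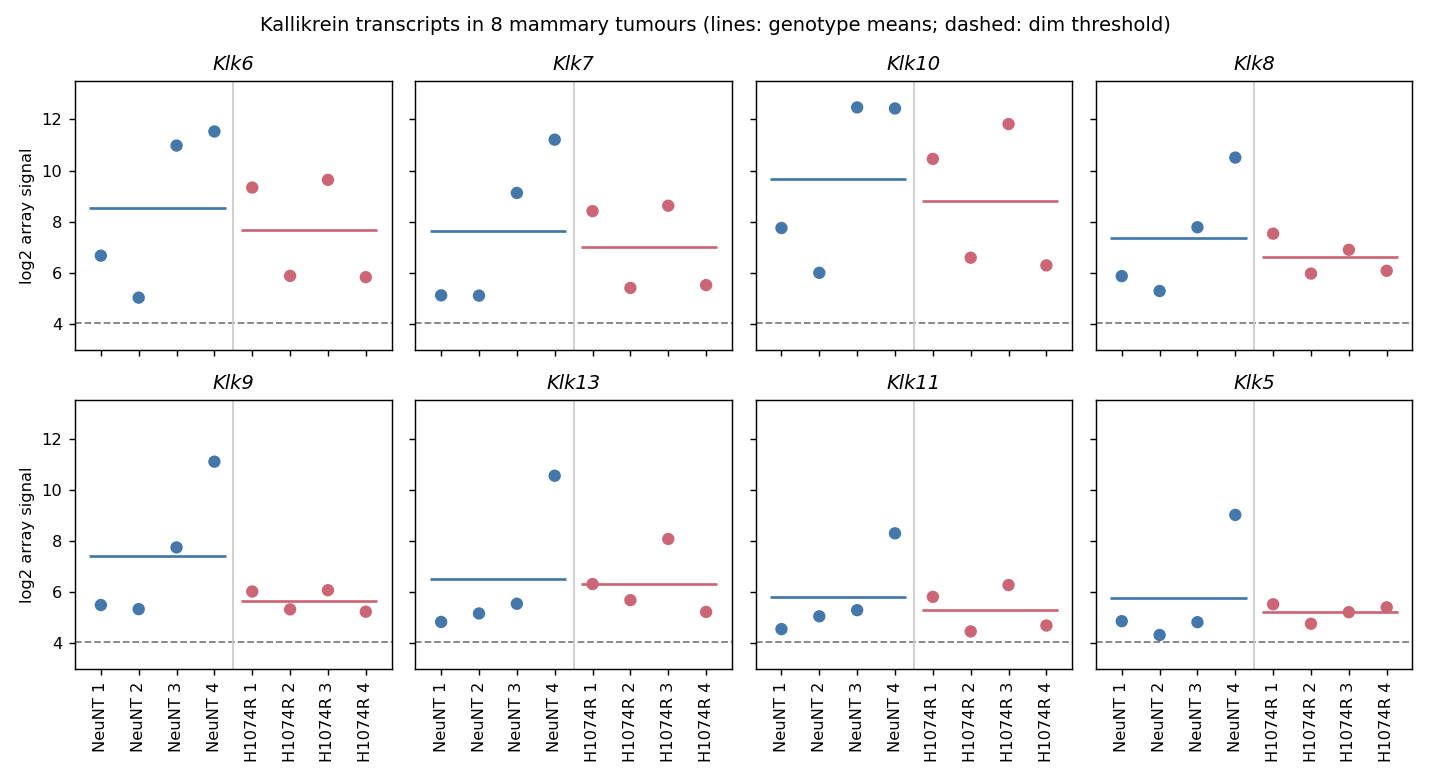
Log2 array signal of each of the 8 kallikrein genes (1 panel per gene) in the 8 tumours, with NeuNT in blue and NeuNT/H1074R, written H1074R 1 to 4, in red; horizontal lines are genotype means and the dashed line is the dim threshold of 4.06. Klk6, Klk7 and Klk10 are high in NeuNT tumours 3 and 4 and NeuNT/H1074R tumours 1 and 3, whereas Klk5 is high in NeuNT tumour 4 only.

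Klk6, Klk7 and Klk10 made up the first kind. Klk6, a trypsin-like protease also known as neurosin and abundant in the central nervous system, had log2 values of 6.68, 5.04, 10.98 and 11.53 in NeuNT tumours 1 to 4 and 9.34, 5.89, 9.64 and 5.84 in NeuNT/H1074R tumours 1 to 4. Each genotype therefore held a pair of high tumours and a pair of low ones, and the lowest of the high tumours stood 2.65 above the next. Klk10, known in human breast epithelium as normal epithelial cell-specific 1, had values of 7.76, 6.01, 12.47 and 12.43 in NeuNT and 10.46, 6.60, 11.82 and 6.30 in NeuNT/H1074R tumours. The same 4 tumours were high, with a step of 2.70 down to the next tumour and a range of 6.45 over all 8. Klk7, a chymotrypsin-like enzyme that cuts corneodesmosin, had values of 5.13, 5.12, 9.13 and 11.21 in NeuNT and 8.42, 5.42, 8.63 and 5.53 in NeuNT/H1074R tumours. Its 4 low tumours lay within 0.40 of each other, and the step up to the next was 2.89. In contrast to Klk10, Klk7 separated NeuNT tumour 4 from the other high tumours, by 2.08.

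Klk8 and Klk9 had the same 4 highest tumours as Klk6, with a smaller step below them. Klk8, or neuropsin, a trypsin-like protease of skin and hippocampus, had values of 5.88, 5.30, 7.79 and 10.51 in NeuNT and 7.54, 5.98, 6.91 and 6.09 in NeuNT/H1074R tumours. NeuNT tumour 4 stood 2.72 above the next tumour, and the step between the 4 higher and the 4 lower tumours was 0.81. Klk9 had values of 5.50, 5.34, 7.75 and 11.10 in NeuNT and 6.03, 5.33, 6.08 and 5.24 in NeuNT/H1074R tumours. It was highest in NeuNT tumour 4, by 3.35 over NeuNT tumour 3, and its 4 lowest tumours lay within 0.26 of each other.

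Klk5, Klk11 and Klk13 were high mainly in NeuNT tumour 4. Klk5, the enzyme that starts the activation cascade in the skin, had values of 4.87, 4.33, 4.83 and 9.02 in NeuNT and 5.53, 4.77, 5.22 and 5.41 in NeuNT/H1074R tumours. NeuNT tumour 4 lay 3.49 above the next highest tumour, and the other 7 tumours spanned 1.20. Klk13, a trypsin-like protease, had values of 4.84, 5.17, 5.55 and 10.55 in NeuNT and 6.32, 5.69, 8.08 and 5.23 in NeuNT/H1074R tumours. After NeuNT tumour 4 came NeuNT/H1074R tumour 3, with 2.47 between them. Klk11 had values of 4.56, 5.06, 5.30 and 8.30 in NeuNT and 5.82, 4.47, 6.28 and 4.70 in NeuNT/H1074R tumours. For Klk11 and Klk13, NeuNT tumour 3 was not among the 3 highest tumours, although it was the highest for Klk10. Klk11 nevertheless had the same 4 highest tumours as Klk6, with a step of 0.23 below them.

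The resemblance among the members was close for some pairs and rested on NeuNT tumour 4 for others. Over the 8 tumours the median of Pearson's r for the 28 pairs of members was 0.87, from 0.52 (Klk5 and Klk10) to 0.99 (Klk6 and Klk10). With NeuNT tumour 4 left out the median was 0.68, from 0.04 (Klk5 and Klk9) to 0.99 (Klk6 and Klk10). Klk6 and Klk7 stayed at 0.97 and Klk11 and Klk13 went from 0.96 to 0.86, while Klk5 and Klk8 went from 0.90 to 0.54. These coefficients describe 8 arrays that all members share and were not tested.

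Along chromosome 7 the wide ranges ran from Klk14 to Klk5, with a narrower one in Klk12. In RefSeq order the members run from Klk13 through Klk11, Klk10, Klk9, Klk8, Klk7 and Klk6 to Klk5, with Klk12 between Klk13 and Klk11. Directly before Klk13 lies Klk14, another trypsin-like kallikrein of the epidermis. Its values were 5.66, 4.51, 11.43 and 10.98 in NeuNT and 8.31, 4.82, 9.71 and 4.77 in NeuNT/H1074R tumours, the same 4 high tumours as for Klk6, Klk7 and Klk10, with a range of 6.92. Beyond Klk14, Ctu1, a gene of transfer RNA modification, had a range of 0.50. On the other side of Klk5, the tooth enamel protease Klk4 had a range of 0.16, from 5.22 to 5.38.

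Klk12, inside the cluster, had 6.94 in NeuNT tumour 4 and 5.03 to 5.37 in the other 7, a range of 1.91. In a window of 10 genes to either side, 15 genes that are not members were measured, and 1 of them, Klk14, had a range of at least 2. The 7 measured genes of the window that are not kallikreins all lie on the side of Klk14 and had a median range of 0.56 and a largest range of 1.51. On the side of Klk5 all measured genes of the window are kallikreins or a kallikrein pseudogene. All of these except Klk4 were left out as dim, as were some of the 7 on the side of Klk14. A small range of a dim gene says little about its variation. Of all genes tested, 8.87% had a range at least as large as the 1.91 of Klk12. The sources used here do not say how far the probes tell kallikreins of similar sequence apart, and this matters most for the closely related Klk1b genes.

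**Figure D2:**
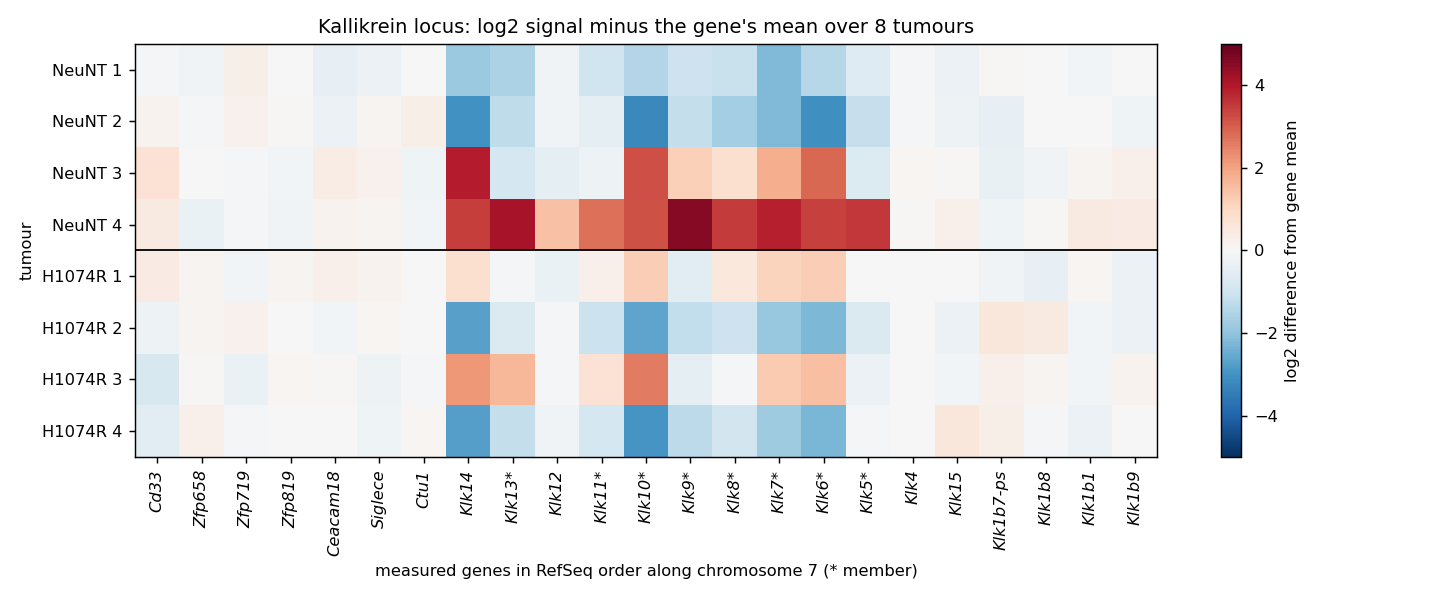
Log2 signal minus the gene's mean over the 8 tumours (colour scale) for the measured genes of the kallikrein locus in RefSeq order (horizontal) in each tumour (vertical, with NeuNT/H1074R written H1074R 1 to 4); asterisks mark the 8 members. The strong colours run from Klk14 to Klk5, and the genes next to them, Ctu1 on the left and Klk4 on the right, had ranges of 0.50 and 0.16. All genes shown to the right of Klk4 were left out as dim.

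Of the other tissue kallikreins, 15 of 18 listed genes were measured and 6 passed the filter on dim genes. None of the 6 passed the genotype test (4 higher and 2 lower in NeuNT/H1074R, median log2 difference 0.01), which 0 of all 16635 genes tested passed. Besides Klk14 and Klk12, Klk1b11, of the rodent Klk1b group, varied most, in another order of tumours. It had values of 7.23, 5.97, 5.32 and 5.40 in NeuNT and 5.81, 7.14, 7.46 and 7.10 in NeuNT/H1074R tumours, so that it was lowest in the NeuNT tumours 3 and 4 where Klk10 was highest.

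The labels set tumours with mutant p110α against tumours without it, and the kallikreins were compared in the same way. The genotypes overlapped for all 8 kallikreins. In limma 0 of 8 passed after Benjamini-Hochberg adjustment over all 16635 genes tested, where 0.0% of genes passed, and 0 of 8 had an unadjusted p under 0.05, against 3.82% of all genes. Groups without overlap were found for 0 of 8 members and for 2.69% of all genes. Means were lower in NeuNT/H1074R for all 8 members and for 50.5% of all genes, and the median log2 difference was −0.70 over the members and −0.003 over all genes.

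Klk9 had the largest difference. In NeuNT tumours its mean was 7.42 ± 2.68 (SD, n = 4), and in NeuNT/H1074R tumours 5.67 ± 0.45 (SD, n = 4). The log2 difference was −1.75 ± 1.15 (SE), with a 95% interval from −4.37 to 0.86 (limma, adjusted p = 0.978). Without NeuNT tumour 4 the difference of Klk9 was −0.53. The mean of Klk6 was 8.56 ± 3.19 (SD, n = 4) in NeuNT tumours and 7.68 ± 2.10 (SD, n = 4) in tumours with mutant p110α, which gave −0.88 ± 1.61 (SE; limma, adjusted p = 0.980). Klk10 differed by −0.87 ± 1.80 (SE; limma, adjusted p = 0.986), with an interval from −4.99 to 3.24 that leaves large differences in either direction unresolved by 4 tumours against 4. The differences of the remaining members ran from −0.74 for Klk8 through −0.65 for Klk7, −0.53 for Klk5 and −0.48 for Klk11 to −0.20 for Klk13 (limma, adjusted p from 0.978 to 0.993). The median SE of the members was 1.20, against 0.173 over all genes tested.

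The lower means rested on NeuNT tumour 4. Without it the median difference over the members was 0.33, and the difference turned positive for all members except Klk9, from 0.05 for Klk10 and 0.11 for Klk6 to 1.14 for Klk13. The median was −1.46 without NeuNT tumour 2 and −1.09 with weights for the arrays. Without NeuNT tumour 3 the difference of Klk10 also turned, to 0.06. Genotype accounted for 21.7% of the variance of Klk9 over the 8 tumours and for 0.289% (Klk13) to 5.72% (Klk8) in the other members.

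**Figure D3:**
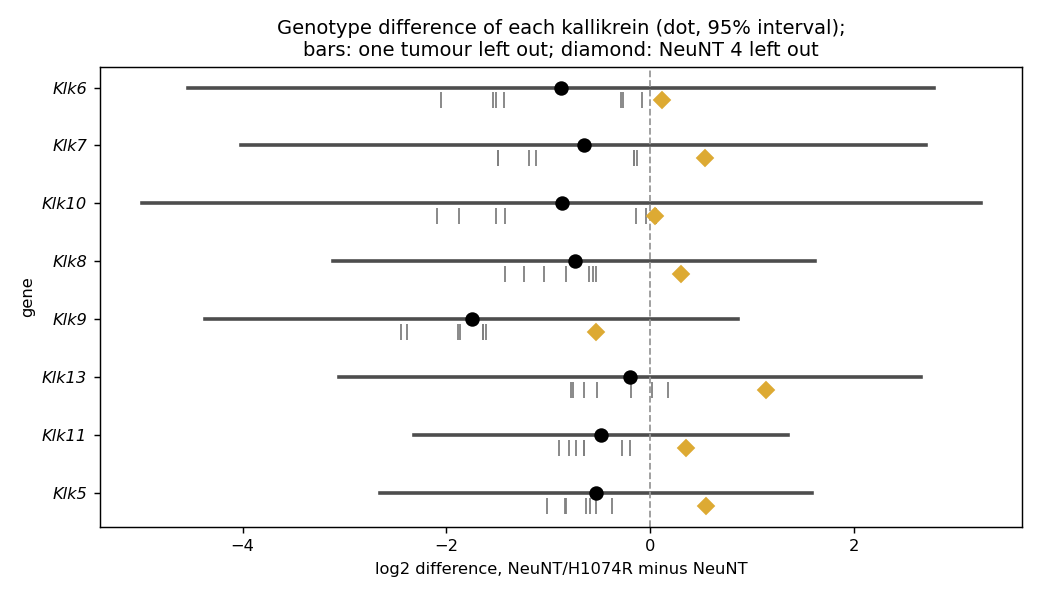
Log2 difference NeuNT/H1074R minus NeuNT (horizontal) for each kallikrein (vertical); dots and lines are the estimates and 95% intervals from all 8 tumours, grey bars the estimates with 1 other tumour left out, and diamonds those without NeuNT tumour 4. All intervals include 0, and 7 of the 8 diamonds lie above 0.

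Inhibitors, other proteases, substrates and possible regulators of kallikreins were described from lists. No list had a member past the genotype test, which 0 of all 16635 genes tested passed. Lower means in NeuNT/H1074R were found for 50.5% of all genes tested. The directions counted for the lists were not recomputed without NeuNT tumour 4. Of the serine protease inhibitors, 11 of 13 passed the filter, 2 higher and 9 lower in NeuNT/H1074R (median log2 difference −0.41, with 0 past the test). Spink5, whose product LEKTI inhibits several kallikreins, had values of 5.03, 5.92, 4.98 and 10.17 in NeuNT and 7.13, 4.66, 6.69 and 5.13 in NeuNT/H1074R tumours. It was high in NeuNT tumour 4 and intermediate in NeuNT/H1074R tumours 1 and 3, and at 4.98 it was low in NeuNT tumour 3, in which Klk6 and Klk10 were high. Pi15 was highest in NeuNT tumour 2 (7.89) and the broad inhibitor A2m in NeuNT tumour 1. Wfdc5 was highest in NeuNT tumours 3 and 4 (8.62 and 8.43), the pair in which Klk10 was highest. Slpi, an inhibitor of leukocyte and epithelial serine proteases, was also highest in NeuNT tumours 4 and 3 (9.86 and 9.41). Its log2 difference of −1.28 ± 0.36 (SE) had the smallest unadjusted p of the list and did not pass (limma, adjusted p = 0.978).

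Among other proteases of surface epithelia, 16 of 20 passed the filter, 3 higher and 13 lower in NeuNT/H1074R (median log2 difference −0.40, with 0 past the test). Of all 19 measured, with no filter, 14 were highest in NeuNT tumour 4. The share of all genes highest in that tumour was not computed, so this count and those of the members and other lists have no background. Tmprss11b and Tmprss11g passed the filter only through NeuNT tumour 4. The filter therefore tilted their direction, and both are among the 13 lower and in the median. The membrane-anchored protease Tmprss11e had 9.61 in NeuNT tumour 4 and 3.48 to 6.17 in the other 7. Asprv1, an aspartic protease of the epidermis that processes filaggrin, had values of 6.16, 6.11, 8.25 and 11.76 in NeuNT and 10.29, 5.68, 9.72 and 5.67 in NeuNT/H1074R tumours. The high tumours of Asprv1 were the same 4 as for Klk7. Tmprss11b and Tmprss11g were high in NeuNT tumour 4 only, at 8.19 and 8.46, against at most 4.65 and 4.68 elsewhere.

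Kallikrein substrates and protease-activated receptors gave 12 tested genes of 16, 4 higher and 8 lower in NeuNT/H1074R (median log2 difference −0.10, with 0 past the test). Dsc1, among the 8 lower, passed the filter only through NeuNT tumour 4, which tilted its direction. Corneodesmosin, Cdsn, an adhesion protein of the cornified layer cut by Klk5 and Klk7, had values of 5.01, 5.20, 5.29 and 10.60 in NeuNT and 6.78, 4.45, 7.83 and 4.86 in NeuNT/H1074R tumours. Desmocollin 1, Dsc1, reached 9.31 in NeuNT tumour 4 and 5.60 in NeuNT/H1074R tumour 1, with 3.07 to 4.26 elsewhere. The desmosomal cadherin Dsg1a and filaggrin, Flg, were also highest in NeuNT tumour 4, at 7.89 and 7.99. In NeuNT tumour 3 Cdsn, Dsc1 and Flg lay at 5.29, 3.45 and 4.34, near the low tumours. Dsg1a lay at 4.96 in NeuNT tumour 3, above its 3.87 and 3.74 in NeuNT tumours 1 and 2. It was level there with the 4.95 of NeuNT/H1074R tumour 4.

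Epithelial transcription factors and hormone receptors gave 19 tested genes of 21, 6 higher and 13 lower (median log2 difference −0.12, with 0 past the test). Grhl3, a factor of the epidermal barrier, had values of 5.0, 5.40, 6.50 and 8.31 in NeuNT and 6.83, 5.23, 7.43 and 4.33 in NeuNT/H1074R tumours. Its 4 highest tumours were those of Klk6. Klf4, a factor of epithelial differentiation, was likewise highest in NeuNT tumour 4 (8.71), followed by NeuNT/H1074R tumour 3 (7.68), NeuNT/H1074R tumour 1 (7.56) and NeuNT tumour 3 (7.39). Ovol1 was highest in NeuNT tumour 4 (8.14) and NeuNT tumour 3 (6.92). The basal factor Trp63 did not follow this order, with 8.44 in both NeuNT tumours 2 and 4 and 4.87, its lowest value, in NeuNT tumour 3.

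The genes most like the mean pattern of the 8 members were sought among the 16627 other genes tested, by Pearson's r over the 8 tumours. The 10 highest were Tmprss4, Plk3, Acp6, Dsg3, S100a9, Synb, Krt6b, Gsto1, Adgrf4 and Krt80, with r from 0.987 to 0.970. They were selected as the extremes of all genes, so r is a description with no test. Tmprss4, a membrane serine protease, had values of 5.56, 5.77, 7.25 and 8.35 in NeuNT and 6.78, 5.87, 7.07 and 5.92 in NeuNT/H1074R tumours. Its Spearman's rho was 0.86, and r was 0.96 without NeuNT tumours 3 and 4, which lay farthest from the median of the pattern. The desmosomal cadherin Dsg3 had values of 5.79, 5.29, 7.78 and 10.17 in NeuNT and 8.28, 6.12, 8.23 and 5.89 in NeuNT/H1074R tumours, with rho of 0.81 and r of 0.98 without those tumours. The keratin gene Krt6b had the widest range of the 10, 7.90, from 4.25 in NeuNT tumour 1 to 12.15 in NeuNT tumour 4. The ranges of Acp6 and Synb were 1.09 and 0.81, so likeness here is one of proportion, not of size. The order of the tumours matched less closely for some of the 10, with rho from 0.69 (Plk3) to 0.98 (Synb). In all, 116 genes had r of at least 0.9 and 101 had r of −0.9 or lower.

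Markers of cornified squamous epithelium were highest in NeuNT tumour 4, as most kallikreins were. This held for all 22 markers measured, with no filter, though Krt2 stood at 4.47 both there and in NeuNT/H1074R tumour 4. The mean of the 21 tested stood 3.42 above the gene means in NeuNT tumour 4. It was 3.37 without Sprr2h, which passed the filter only through NeuNT tumour 4. The list mean was 0.74 and 0.40 in NeuNT/H1074R tumours 1 and 3 and −1.31 to −0.66 elsewhere. The kallikrein mean was 3.62 in NeuNT tumour 4, 1.01 in NeuNT tumour 3, 0.47 and 0.87 in NeuNT/H1074R tumours 1 and 3, and −1.79 to −1.31 in the other 4. In NeuNT tumour 3 the kallikrein mean thus lay above and the cornified list mean below the average tumour. There Krt6a and Krt6b were at 9.07 and 8.72, above the 4 tumours with low kallikreins, whereas Krtdap was at 4.53 and Sprr1a at 4.65, its lowest value. The part of such cells in the kallikrein values was not tested, and in whole tumours more cells of a type and more RNA per cell cannot be told apart.

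Markers of other cell types were described in the same way. Of 18 hair follicle markers, 16 were highest in NeuNT tumour 4, with a list mean of 2.58 there and −0.75 to 0.19 elsewhere. The basal and myoepithelial list was highest in NeuNT tumour 2 (1.97), in which the kallikreins were lowest, and was −1.11 in NeuNT tumour 3. Its keratins Krt14 and Krt17 were instead highest in NeuNT/H1074R tumours 1 and 3 and NeuNT tumour 4. Krt14 had 12.49, 11.73 and 12.04 there, and Krt17 had 12.45, 12.19 and 10.77. In NeuNT tumour 3 these keratins were at 7.99 and 5.06. All other tested members of the list were highest in NeuNT tumour 2. Luminal markers were present in all tumours, with Krt8 from 9.78 to 10.89 and Krt18 from 10.36 to 11.36, and their list mean stayed between −0.38 and 0.30. Single luminal genes varied widely. Krt19 ran from 5.37 in NeuNT tumour 3 to 11.52 in NeuNT/H1074R tumour 3, and Cldn4 from 8.18 in NeuNT/H1074R tumour 4 to 11.33 in NeuNT tumour 3. Skeletal muscle markers were highest in NeuNT/H1074R tumours 1 and 3 (1.67 and 1.32) and −0.79 to −0.04 elsewhere. The salivary gland list was highest in NeuNT tumour 1 (1.89), and the sebaceous gland list, with 4 of 9 genes tested, in NeuNT tumour 3 (0.56). The leukocyte list was highest in NeuNT tumour 4 (1.53), and 4 of its 6 tested genes were highest there. Its widest ranges were in S100a8 and S100a9, which keratinocytes also make. Cd3e had the next widest range, 2.66, and was highest in NeuNT tumour 4 (8.57), followed by NeuNT tumour 2 (8.10). The general leukocyte gene Ptprc lay between 5.84 and 7.61, highest in NeuNT tumour 4 by 0.10. Csf1r was highest in NeuNT tumour 2 (9.48, against 8.66 in NeuNT tumour 4). Cd68 was highest in NeuNT tumour 3 (10.64, against 10.46 in NeuNT tumour 4), and Ly6g was left out as dim. The fibroblast and fat list was −0.37 in NeuNT tumour 4 and between −0.82 and 0.90 over all tumours. The 9 marker lists together had 0 members past the genotype test, which 0 of all 16635 genes tested passed.

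**Figure D4:**
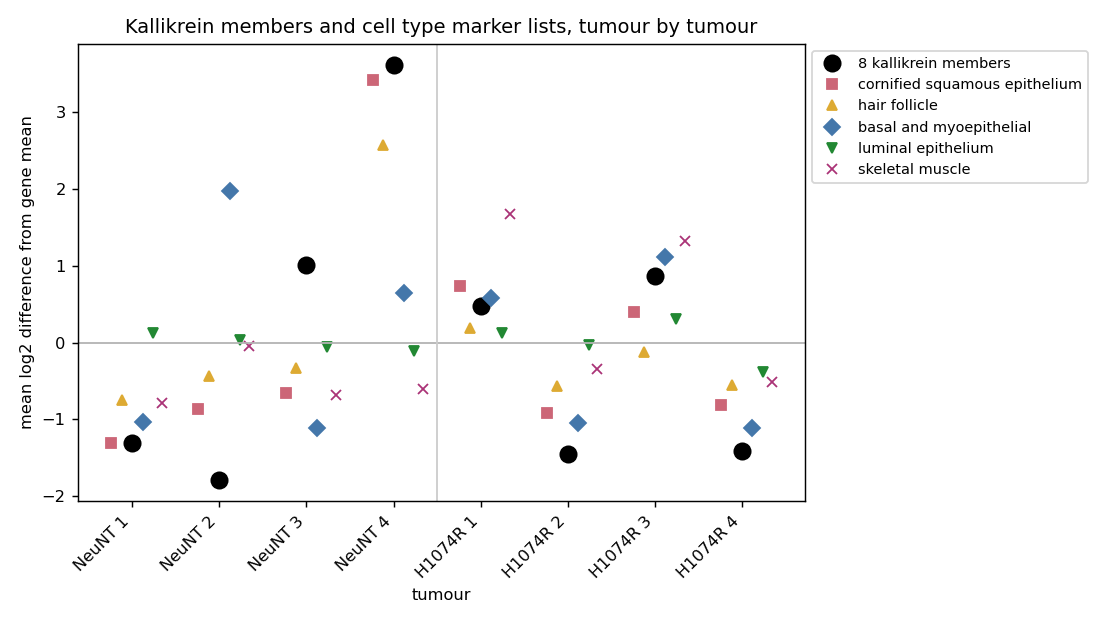
Mean log2 difference from the gene means (vertical) of the 8 kallikrein members and of 5 marker lists in each tumour (horizontal, with NeuNT/H1074R written H1074R 1 to 4). The kallikrein and cornified points lie together at 3.62 and 3.42 in NeuNT tumour 4 and apart at 1.01 and −0.66 in NeuNT tumour 3.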

How the data were processed

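Total RNA of 8 tumours was labelled and measured on Affymetrix whole-transcript arrays, 1 per tumour. The authors deposited log2 signals for 41345 probes. The submitters' processing notes name Affymetrix Expression Console and Transcriptome Analysis Console; the sources used here give neither background correction nor normalization. That the scale is log2 was inferred from the range of the deposited values, 0.887 to 13.6. There is no read depth on arrays, and precision is limited by their number.

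Probes were named from the platform annotation (23521 with 1 gene symbol), giving 22180 genes, and RefSeq (GRCm38.p6) gave gene order and promoters. The probe of highest mean stood for a gene, and the 25% of genes with the lowest means, under 4.06, were left out, which left 16635. Genotypes were compared in limma 3.58.1 under R 4.3.3 (lmFit, eBayes with an intensity trend, no covariate, two-sided), with Benjamini-Hochberg adjustment and a threshold of 0.05, and the fit was tested on simulated data. Means of lists are means of log2 values minus each gene's mean over 8 tumours, over the tested genes.

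The members and lists were chosen with earlier results of these data known. Named genes are the members, direct neighbours and up to 4 genes of largest range per list. The 10 genes most like the members' mean pattern (without clone names and olfactory or vomeronasal receptors) are named too. Krt2, Krt8, Krt18, Slpi, Ptprc, Cd68, Ly6g, Sprr2h, S100a8 and S100a9 were named after their values were seen. Alternatives left out each tumour, renormalized or centred the arrays, and changed the filter, the probe rule, the variance trend and the array weights. Plots used matplotlib 3.10.9.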

Additional observations from a re-analysis of the deposited data

Results flagged for a closer look

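Klk5 was flagged because NeuNT tumour 4, at a log2 value of 9.02, lay 4.15 above the next NeuNT tumour, a gap of 0.885 of the group's range. Klk13 was flagged in the same way, with 10.55 in NeuNT tumour 4, a gap of 0.876 of the range. Both gaps are wider than Dixon's 95% critical value for 4 samples. Since the genes were selected on values of these tumours, this is a description and not a test. Of 18 groups checked, over the 8 members and their mean in each genotype, 2 were flagged, and chance flags about 1 in 20. The members share their tumours, so the checks are not independent.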

How the results depend on the processing

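No gene passed the genotype test under any of the 15 alternatives (limma), with 358 to 936 genes at an unadjusted p under 0.05. The median difference over the members, −0.70, ran from −1.46 to 0.33 when single tumours were left out, and turned to 0.33 without NeuNT replicate 4. Under the other 7 alternatives it ran from −1.09 with array weights to −0.66 with quantile normalization. Of 64 differences of single members with a tumour left out, 10 had the opposite sign. With single tumours left out, the differences ran from −1.01 to 0.55 for Klk5, −2.05 to 0.11 for Klk6, −1.49 to 0.54 for Klk7, −1.43 to 0.30 for Klk8, −2.45 to −0.53 for Klk9, −2.09 to 0.06 for Klk10, −0.90 to 0.35 for Klk11 and −0.78 to 1.14 for Klk13. The upper value was that without NeuNT replicate 4, except for Klk10, which stood at 0.05 without it and at 0.06 without NeuNT replicate 3. Klk13 also stood at 0.02 and 0.17 without NeuNT/H1074R replicates 2 and 4. Of 54 under the other alternatives, 0 had the opposite sign, and the lowest adjusted p of a member over all alternatives was 0.821 (limma). Many of the 54 were fixed in advance. Each member had 1 probe, so changing the filter, the variance trend or the probe rule could not alter its difference. Only renormalized or centred arrays and array weights could. With the lower 50% of genes left out, Klk5 and Klk11 were not tested. All 24 ranges recomputed under renormalized or centred arrays or averaged probes moved by less than the SD between tumours of a genotype. Those with averaged probes could not move. The correlations without NeuNT replicate 4 and the list counts with no filter were chosen after seeing the data. No paired analysis was possible because the labels give the genotypes no shared replicate numbers.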
